A study of Mus musculus with 10 samples.

Results

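Aminoacyl tRNA synthetase genes were followed in mouse erythroleukemia (MEL) cells, a virus-transformed line of red cell precursors grown in culture. They were taken as the probe sets with 1 gene symbol made of a letter, "ars" and an optional 1 or 2, together with Eprs, Farsa, Farsb and Fars2. The rule found 35 genes among the 18193 genes with a symbol of their own, read by 72 of 45037 probe sets. Each gene is given by its probe set of highest mean over the arrays, and 34 of the 35 genes passed the filter on dim probe sets. By the rule 19 genes encode cytosolic enzymes and 16, with symbols ending in 2, mitochondrial ones. The rule uses symbols and, to choose 1 probe set a gene, the mean over all arrays, but the family was picked with earlier results of these data known.

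An aminoacyl tRNA synthetase couples 1 amino acid to the transfer RNAs that carry it to the ribosome, and so supplies charged tRNA for every codon of that amino acid. Mammalian cells keep separate genes for the cytosolic and most of the mitochondrial enzymes, while Gars and Kars each encode both forms. Some of the cytosolic enzymes sit together in the multisynthetase complex and the others work free of it. Many of the cytosolic genes are known targets of ATF4, the transcription factor made when amino acids run short, and red cell precursors depend on tRNA charging to build globin.

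The study compared 4 subclones (FBB1.5 and FBB1.7, FBB1.10 and FBB1.11) with the parental Mel-BirA line, on 2 arrays for each of the 5 lines. All 5 lines carry BirA, the bacterial enzyme that attaches biotin, and the subclones also express BCL11A, a repressor of fetal globin genes, with a FLAG-Biotag. Each subclone is a clone, so what its tagged protein did and what set that clone apart before cannot be told apart. No label gives the arrays of 1 line separate cultures, and the p-values measure the spread between arrays, which may be technical.

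Values are probe set intensities on a linear scale, in arbitrary units, with array medians between 29.6 and 31.6. Correlations of log2 values were 0.981 to 0.989 between arrays of a line and 0.968 to 0.987 between lines. The signal of actin's 3' probe set over its 5' one, a sign of RNA length, was 1.47 on FBB1.5 array 1 and 1.80 on parental array 2, against 1.06 to 1.22 on the other arrays. Of 10 erythroid markers 8 were tested, among them Gata1 and Klf1, while Slc4a1 and Hba-a1 did not exceed the table median on any array. Mast cell and basophil markers, 7 of 8 tested and 1 (Ms4a2) at or below the median on every array, summed to 2218 to 2781 in FBB1.10, 991 to 1125 in FBB1.7, 5171 to 6573 in FBB1.5 and 1833 to 1843 in FBB1.11, against 5687 to 6820 in parental cells. The sums were below the parental ones in FBB1.7, FBB1.10 and FBB1.11, and Mcpt2 made up most of the parental sums (5974 and 4933). By line means Cma1, Cpa3, Gzmb and Mcpt4 were also lower in those subclones. Tpsb2 was higher in FBB1.7 and FBB1.11 (54.2 and 43.7 against 38.7), and Kit was nearly level in FBB1.11 (35.5 against 36.5). The part of these markers in the results was not tested. In RNA from whole cultures, fewer cells of a type and less RNA per cell cannot be told apart.

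Cytosolic synthetase probe sets were bright on every array, with means over the 10 arrays of 354 to 2556. Mitochondrial synthetase probe sets had means of 18.5 to 689. Mars2, the mitochondrial methionine enzyme, exceeded the table median on 0 of 10 arrays and was not tested. Ears2 and Sars2, for glutamate and serine, failed to do so on 1 array each, and the other 32 genes lay above it on every array. Levels of different probe sets are not set against each other, since brightness depends on the probes.

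Tests used limma on log2(intensity + 16), with 1 spread pooled over the 5 lines and p-values adjusted by Benjamini and Hochberg over 25061 probe sets. A gene is called at an adjusted p under 0.05. In FBB1.7, 4 of 34 synthetase genes were called, or 11.8%, near the 10.7% called among all 12496 genes. Gars, Nars and Hars rose there and Qars fell, where 4.29% of all genes were called higher and 6.39% lower. In FBB1.10, 3 of 34 were called, or 8.82% against 1.81% of all genes, with Gars and Nars higher and Qars lower, where 0.936% of all genes were called higher and 0.872% lower. In FBB1.5 the count was 0 of 34, against 2.38% of all genes, and 2 of the 34 had an unadjusted p under 0.05. In FBB1.11 it was also 0 of 34, against 0.184% of all genes, with 3 at an unadjusted p under 0.05. Every call fell on a cytosolic gene, and 0 of 15 mitochondrial genes were called in any subclone, with 0 to 4 of them in each at an unadjusted p under 0.05. At the shares of all genes given here, a list of 15 could hold no call. Errors differed too: in FBB1.7 the mitochondrial Sars2 differed by 0.50 ± 0.17 (log2, SE) without a call, and Gars was called at 0.36 ± 0.07. The comparisons share the 2 parental arrays.

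Counts moved with single arrays. Without array 1 or array 2 of FBB1.7 the FBB1.7 count was 2, and without FBB1.10 array 1 or array 2 the FBB1.10 count was 0 or 1. Without parental array 1 the FBB1.5 count was 1. Without the intensity trend the calls of Gars, Nars and Hars in FBB1.7 and all calls in FBB1.10 were lost, and that of Qars in FBB1.7 was kept. The FBB1.7 count was then 2, so a synthetase gene not called there in the main fit was called. Which gene it was, cytosolic or mitochondrial, was not recorded.

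Set as 1 group against parental cells, the 4 subclones gave 0 of 34 calls when the cell line was a random block, the fit that carries the spread between clones. The background in that fit was also 0% of genes, with 2190 probe sets and 3 synthetase genes, Gars, Nars and Sars2, at an unadjusted p under 0.05. The lowest adjusted p of a synthetase gene was 0.456. With the spread taken within lines only, the mean of the subclones was higher for Gars (log2 0.29, adjusted p = 0.0145) and Nars (log2 0.26, adjusted p = 0.041) and lower for Qars (log2 -0.33, adjusted p = 0.0204), or 8.82% of 34 against 3.77% of all genes (1.82% higher and 1.95% lower). That fit speaks of these 4 clones and not of others. The Gars call there was lost without parental array 1, the Qars call without either parental array, and the Nars call without any 1 array except FBB1.5 array 1 and FBB1.10 array 2. With actin's ratio as a covariate Qars (adjusted p = 0.187) and Nars (0.407) were not called there and Hars was (0.0395), and the mean of a gene's probe sets ended the Nars call (0.177) and gave one for Hars (0.0353). Without the intensity trend or without the filter none of Gars, Nars and Qars was called there, and other array scalings ended the Nars call (adjusted p of 0.0855 with quantile normalization and 0.0699 with arrays centred).

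**Figure D1:**
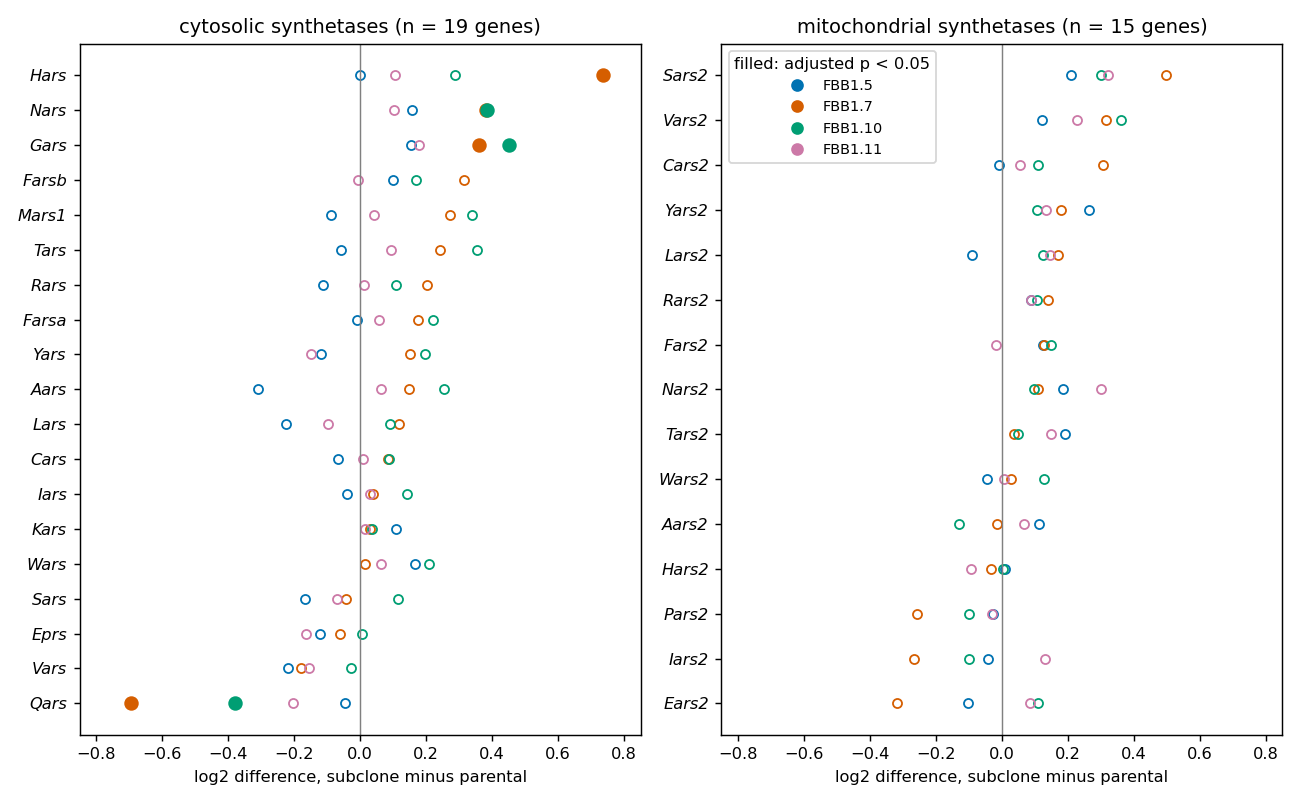
Log2 difference of each subclone from the parental line for 19 cytosolic and 15 mitochondrial synthetase genes, with 1 point per subclone, filled where the adjusted p is under 0.05. Qars lies at -0.69 in FBB1.7 and Hars at 0.73, and no mitochondrial point is filled.

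Over the 19 cytosolic genes the median log2 difference from parental cells was 0.17 in FBB1.10, 0.15 in FBB1.7, -0.06 in FBB1.5 and 0.02 in FBB1.11. Over all genes the medians lay between -0.02 and 0.01. The number of the 19 above parental was 17 in FBB1.10, 15 in FBB1.7, 6 in FBB1.5 and 12 in FBB1.11, while 47.6% to 52.8% of all genes were. Both arrays lay above both parental ones for 9 cytosolic genes in FBB1.10 and 8 in FBB1.7, and below both for 1 gene in each, Qars. In FBB1.5 they lay above for 3 and below for 6, and in FBB1.11 above for 2 and below for 3. Of all genes 24.2% lay above and 29.6% below in that way in FBB1.7, and 22% above and 22.8% below in FBB1.10. The shares were 23.2% above and 19.5% below in FBB1.5, and 20.3% and 22.2% in FBB1.11. These are descriptions of the list, which was given no test.

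The 15 mitochondrial genes had medians of 0.11 in FBB1.10, 0.11 in FBB1.7, 0.09 in FBB1.5 and 0.09 in FBB1.11. Between 9 and 12 of the 15 were above parental in each subclone. Both arrays lay above both parental ones for 7 of the 15 in FBB1.10, 7 in FBB1.7, 4 in FBB1.5 and 5 in FBB1.11. Both lay below for 1, 2, 0 and 0 genes in that order. Arrays above both parental ones were thus not particular to the cytosolic genes. The parental line was the lowest of the 5 lines for 6 of 15 mitochondrial genes, or 40%, against 23.1% of all genes.

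The order of the 5 lines was counted gene by gene. FBB1.10 was the highest of the 5 lines for 12 of 19 cytosolic genes, or 63.2%, against 16.4% of all genes, and FBB1.5 the lowest for 10 of 19, or 52.6%, against 19.2%. For mitochondrial genes FBB1.10 was highest for 4 of 15 and FBB1.5 lowest for 3 of 15. Neighbouring lines in these orders did not always differ beyond their arrays, as the values by array show.

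**Figure D2:**
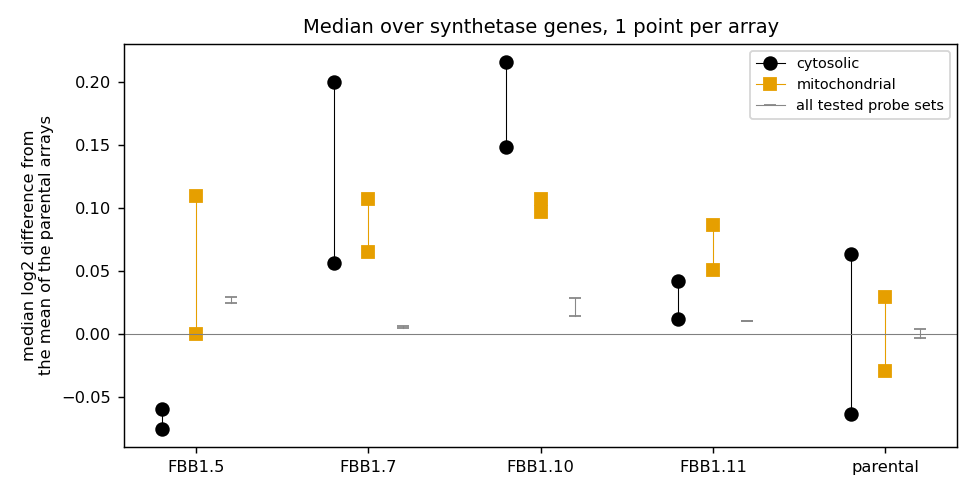
Median over synthetase genes of the log2 difference of 1 array from the mean of the parental arrays, with 2 points per line for cytosolic (circles) and mitochondrial (squares) genes and dashes for all 25061 tested probe sets. The cytosolic medians are 0.22 and 0.15 on the FBB1.10 arrays and -0.08 and -0.06 on the FBB1.5 arrays, and the parental arrays lie at -0.06 and 0.06.

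On the FBB1.7 arrays the cytosolic medians were 0.20 and 0.06, so array 2 of FBB1.7 lay below parental array 2. Both FBB1.10 arrays lay above both parental ones, and the FBB1.5 and FBB1.10 arrays did not overlap.

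Medians were also taken by place in the cell and by enzyme class, with no test. For the 7 enzymes of the multisynthetase complex (Eprs, Iars, Kars, Lars, Mars1, Qars and Rars) the median was 0.09 in FBB1.10, 0.04 in FBB1.7, -0.09 in FBB1.5 and 0.01 in FBB1.11. For the 12 others it was 0.22, 0.16, -0.03 and 0.06 in the same order. Synthetases fall into a pair of unrelated structural classes, and Eprs joins an enzyme of each. The 9 class I genes had medians of 0.11, 0.09, -0.09 and 0.01, and the 9 class II genes 0.25, 0.24, 0.00066 and 0.06. The genes called higher in a subclone (Gars, Nars and Hars) were class II and outside the complex. The 1 called lower, Qars, is class I and inside it. The members as a whole did not keep to that split. In FBB1.10, 6 of the 7 genes of the complex and 7 of the 9 of class I lay above parental cells. So did 11 of the 12 outside the complex and all 9 of class II. Mars1, class I and in the complex, lay above by 0.34 (log2) there and was not called.

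Promoter sequence was read for the 26 members in the RefSeq table (build GRCm38.p6), 12 cytosolic and 14 mitochondrial, over 250 bases before to 50 after each start. The search covered both strands for TGATGNAA, the C/EBP-ATF response element that ATF4 is known to bind. It was found in 5 of 12 cytosolic promoters (Aars, Gars, Iars, Tars and Yars), 0 of 14 mitochondrial ones and 3.97% of 32851 promoters. The 150 bases before the start are shown for Aars (chr8:111033692-111033841, plus strand), Gars (chr6:55037851-55038000, plus strand) and Tars (chr15:11399659-11399808, minus strand), which differed between subclones and hold the element, and for Qars (chr9:108507855-108508004, plus strand), which fell. Mars1 also differed between subclones, and its promoter was read and holds no such element. Iars and Yars hold it and were not called. Neither Nars nor Hars, which rose, is among the 5 with the element, and whether their promoters were read is not recorded here. Capitals mark the matches, which read here as the reverse complement.

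Aars: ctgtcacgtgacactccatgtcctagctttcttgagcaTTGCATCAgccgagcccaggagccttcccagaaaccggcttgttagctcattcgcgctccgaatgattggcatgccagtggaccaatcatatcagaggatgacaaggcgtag

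Gars: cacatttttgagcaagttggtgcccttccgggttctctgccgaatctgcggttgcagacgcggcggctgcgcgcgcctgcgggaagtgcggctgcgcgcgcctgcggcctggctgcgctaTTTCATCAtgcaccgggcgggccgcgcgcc

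Tars: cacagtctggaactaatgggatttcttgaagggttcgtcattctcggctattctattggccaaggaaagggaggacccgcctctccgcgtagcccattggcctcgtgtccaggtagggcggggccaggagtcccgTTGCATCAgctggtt

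Qars: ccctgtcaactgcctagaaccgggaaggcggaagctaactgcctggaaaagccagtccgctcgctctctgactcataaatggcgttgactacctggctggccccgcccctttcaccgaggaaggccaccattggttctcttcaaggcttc

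The Aars match lies 112 to 105 bases before the start, and a second one lies 10 to 17 bases after it. The Gars match lies 30 to 23 bases before the start, and the Tars match 15 to 8. The matches of Iars and Yars lie after the start, at 8 to 15 and 4 to 11. The Qars window holds no such letters.

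Other motifs were searched for in the same way. CACGTG, the E-box, was in 4 of 12 cytosolic promoters (Aars, Farsb, Iars and Tars), 1 of 14 mitochondrial ones (Ears2) and 7.15% of all. CCGGAAGT, an ETS motif, was in 2 of 12 (Farsa and Mars1), 1 of 14 (Rars2) and 3.89%. Like TGATGNAA, both were in a larger share of cytosolic promoters (33.3% and 16.7%) than of mitochondrial ones (7.14% for each) or of all. These shares were not tested. The palindromic NRF1 motif was in none of the 26 and in 0.971% of all. No matches of different motifs overlapped, and a match is not shown to be a bound site.

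Gars charges tRNA with glycine. It read 3069.96 and 2864 in FBB1.10, 2909 and 2662 in FBB1.7, 2458 and 2362 in FBB1.5 and 2583 and 2321 in FBB1.11, against 2068 and 2261 in parental cells. All 8 subclone arrays lay above both parental ones, and both FBB1.7 and both FBB1.10 arrays above every array of the other lines. Gars rose by 0.36 ± 0.07 (log2, SE) in FBB1.7, 1.28-fold (limma, adjusted p = 0.0061), and by 0.45 ± 0.07 in FBB1.10, 1.37-fold (adjusted p = 0.0064). The differences were 0.16 in FBB1.5 and 0.18 in FBB1.11, with adjusted p = 0.345 and 0.359. The FBB1.7 call was lost without FBB1.7 array 1 (adjusted p = 0.092) and the FBB1.10 call without FBB1.10 array 1 (adjusted p = 0.087).

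Nars charges tRNA with asparagine, the amino acid made by Asns. Its brightest probe set read 1531 and 1400.01 in FBB1.10, 1433 and 1494 in FBB1.7, 1179 and 1325 in FBB1.5 and 1248 and 1159 in FBB1.11, against 1136 and 1102 in parental cells. The 4 arrays of FBB1.7 and FBB1.10 were the highest. Nars rose by 0.38 ± 0.08 in both, 1.30-fold in each (limma, adjusted p = 0.0081 in FBB1.7 and 0.028 in FBB1.10). A second Nars probe set did not follow: it differed by 0.08 in FBB1.7 and 0.09 in FBB1.10 (adjusted p = 0.638 and 0.728), with 1113 and 1055 in FBB1.10 and 1119 and 1048 in FBB1.7, against 927 and 1123 in parental cells. Averaging both probe sets ended the calls (adjusted p = 0.053 in FBB1.7 and 0.129 in FBB1.10). So did actin's ratio as a covariate (adjusted p = 0.185 and 0.216). The FBB1.7 call was also lost without FBB1.7 array 2, and the FBB1.10 call without parental array 2 or either FBB1.10 array.

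Hars, the histidine enzyme, was highest in FBB1.7. It read 639.78 and 596 in FBB1.10, 855 and 841 in FBB1.7, 499.91 and 507 in FBB1.5 and 532 and 552 in FBB1.11, against 387 and 652 in parental cells. The parental arrays differed more from each other than any subclone's arrays did (520 ± 187, SD, n = 2), and both FBB1.7 arrays lay above them. Hars rose by 0.73 ± 0.16 in FBB1.7, 1.66-fold (limma, adjusted p = 0.0086). In the other subclones it differed by 0.00066 (FBB1.5), 0.29 (FBB1.10) and 0.10 (FBB1.11), with adjusted p of 0.999, 0.412 and 0.848. The FBB1.7 call was lost without either FBB1.7 array (adjusted p up to 0.0698), and without parental array 2 the FBB1.10 difference was called (adjusted p = 0.0052).

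A second Hars probe set read 552 and 592 in FBB1.10, 631 and 702 in FBB1.7, 458 and 447 in FBB1.5 and 507 and 512 in FBB1.11, against 349 and 410.13 in parental cells. On it all subclone arrays lay above the parental ones. Its log2 differences were 0.79 ± 0.10 in FBB1.7 (limma, adjusted p = 0.00025) and 0.58 in FBB1.10 (adjusted p = 0.011), with 0.25 in FBB1.5 and 0.41 in FBB1.11 (adjusted p = 0.258 and 0.110). Hars2, the mitochondrial histidine enzyme and next gene on the chromosome, differed by -0.09 to 0.01 and was called in no subclone.

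Qars, the glutamine enzyme and a member of the multisynthetase complex, was the only synthetase gene called lower than parental cells in any subclone. Others lay lower without a call, such as Aars in FBB1.5. It read 1001 and 1033 in FBB1.10, 817 and 810.45 in FBB1.7, 1413 and 1168 in FBB1.5 and 1167 and 1132 in FBB1.11, against 1375 and 1278 in parental cells. FBB1.7 was lowest, then FBB1.10, then FBB1.11, with no overlap between those 3 lines or with the parental arrays, while FBB1.5 overlapped parental cells. Qars fell by 0.69 ± 0.09 on the log2 scale in FBB1.7, to 0.619 of parental (limma, adjusted p = 0.00026), and by 0.38 ± 0.09 in FBB1.10, to 0.770 (adjusted p = 0.0454). The differences in FBB1.5 and FBB1.11 were -0.04 and -0.20, with adjusted p = 0.868 and 0.394. The FBB1.7 call held whichever array was left out, with adjusted p up to 0.0056. The FBB1.10 call was lost without any 1 array except those of FBB1.5, with adjusted p up to 0.237, and in the fit with actin's ratio as covariate (adjusted p = 0.236).

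All tested Qars probe sets were lower in FBB1.7. The second read 789 and 739 in FBB1.10, 659 and 586 in FBB1.7, 897 and 772 in FBB1.5 and 817 and 812 in FBB1.11, against 1002 and 1138 in parental cells. Its log2 difference was -0.77 in FBB1.7 (limma, adjusted p = 0.00026) and -0.48 in FBB1.10 (adjusted p = 0.026). The third fell by 0.68 in FBB1.7 (adjusted p = 0.0018) and differed by -0.38 in FBB1.10 (adjusted p = 0.112). Usp19, the gene before Qars on the chromosome, also fell in FBB1.7, by 0.55 (adjusted p = 0.0063), and Qrich1 on the other side differed by -0.16 (adjusted p = 0.395).

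**Figure D3:**
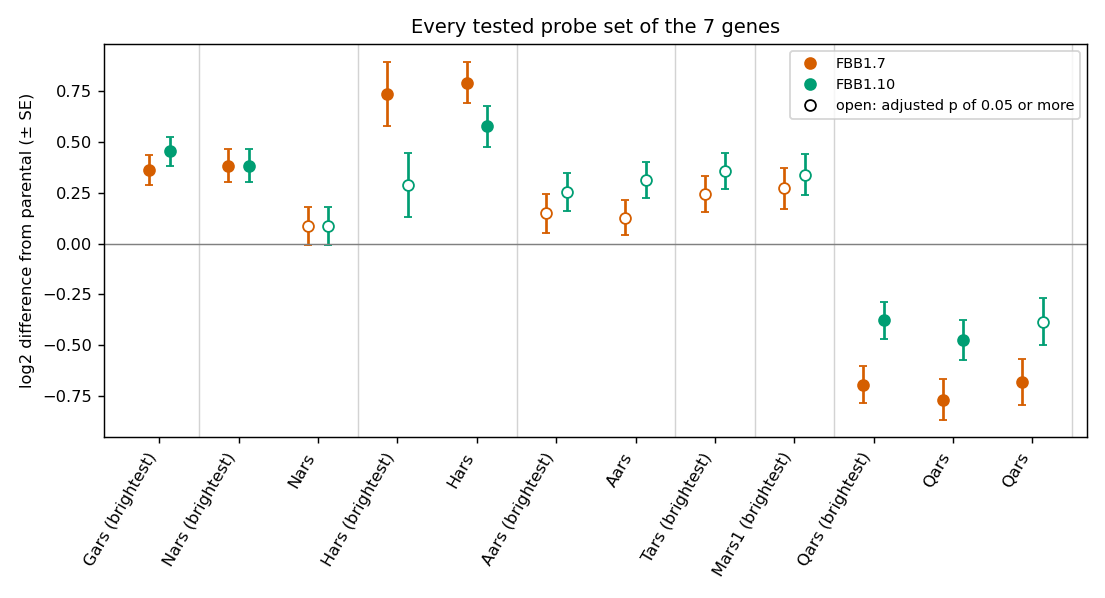
Log2 difference from parental cells, with its SE, in FBB1.7 and FBB1.10 for each tested probe set of the 7 synthetase genes called against parental cells or by the F test, filled where the adjusted p is under 0.05. The second Nars probe set lies at 0.08 and 0.09 while its brightest lies at 0.38 in both, and all Qars probe sets lie below 0.

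The direct test between the 4 subclones, a moderated F test in the same fit, called 6 of 34 synthetase genes, or 17.6%, against 8.07% of all genes. They were Aars, Gars, Hars, Mars1, Qars and Tars, all cytosolic, with 0 of 15 mitochondrial genes. At 8.07% a list of 15 could hold no call. Aars, the alanine enzyme, had an adjusted p = 0.0071, Qars 0.0019, Hars 0.031, Tars 0.033, Mars1 0.038 and Gars 0.039. Only the Qars result held without each array in turn (adjusted p up to 0.022), and without the intensity trend none of the 6 passed (Qars at adjusted p = 0.0667). The Aars result was lost without FBB1.5 array 1 (adjusted p = 0.078), and those of Tars and Mars1 without any 1 subclone array. The Gars result was lost without any subclone array except FBB1.11 array 1, and that of Hars without any except FBB1.10 array 2.

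Aars read 1371 and 1301 in FBB1.10, 1351 and 1139 in FBB1.7, 886 and 913 in FBB1.5 and 1184 and 1155 in FBB1.11, against 1029.55 and 1214 in parental cells. The FBB1.5 arrays were the lowest of the 10, and those of FBB1.10 lay above the parental and FBB1.11 ones. Against parental cells no subclone passed, with log2 differences of -0.31 ± 0.10 in FBB1.5 (limma, adjusted p = 0.125) and 0.25 in FBB1.10 (adjusted p = 0.207). Without parental array 1 the FBB1.5 difference was called (adjusted p = 0.033). A second Aars probe set also differed between subclones (adjusted p = 0.0053).

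Tars, the threonine enzyme, read 992 and 915 in FBB1.10, 903 and 858 in FBB1.7, 702 and 721 in FBB1.5 and 779.72 and 804 in FBB1.11, against 693 and 792 in parental cells. The FBB1.7 and FBB1.10 arrays were the 4 highest. Its log2 differences from parental cells were 0.24 ± 0.09 in FBB1.7 and 0.36 ± 0.09 in FBB1.10 (limma, adjusted p = 0.101 and 0.057). The FBB1.10 difference was called without parental array 2 (adjusted p = 0.0409), with probe sets required above the median on all 10 arrays (0.045) and with the mean of a gene's probe sets (0.0462).

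Mars1, the cytosolic methionine enzyme and a member of the complex, read 449 and 422 in FBB1.10, 438 and 393 in FBB1.7, 322 and 318 in FBB1.5 and 366 and 338 in FBB1.11, against 334 and 348 in parental cells. Here too the FBB1.7 and FBB1.10 arrays were the 4 highest and the FBB1.5 arrays the lowest. The log2 differences from parental cells were 0.27 ± 0.10 in FBB1.7 and 0.34 ± 0.10 in FBB1.10 (limma, adjusted p = 0.106 and 0.109).

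**Figure D4:**
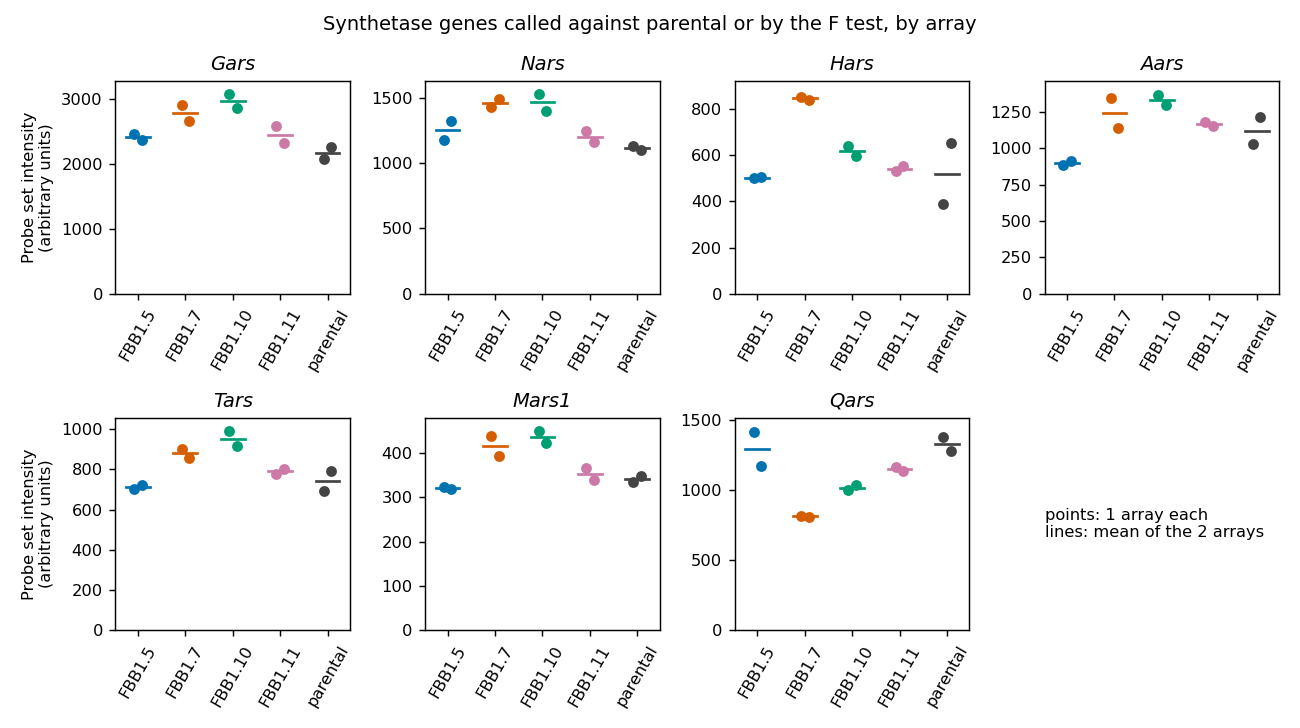
Probe set intensity in arbitrary units on each of the 10 arrays for the 7 synthetase genes called against parental cells or by the F test, with a line at the mean of the 2 arrays of each cell line. Qars reads 817 and 810.45 in FBB1.7 against 1375 and 1278 in parental cells, and the parental Hars arrays lie apart at 387 and 652.

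Single comparisons between subclones showed where these genes differed. FBB1.7 over FBB1.5 gave 5 calls among 34, where 10.3% of all genes were called, 3.81% higher and 6.45% lower. The log2 differences were 0.73 for Hars, 0.46 for Aars, 0.36 for Mars1, 0.30 for Tars and -0.65 for Qars. FBB1.10 over FBB1.5 also gave 5 calls (4.25% of all genes, 1.96% higher), all of them higher: Aars by 0.56, Mars1 by 0.43, Tars by 0.41, Gars by 0.30 and Sars, the serine enzyme, by 0.28. FBB1.11 over FBB1.7 gave 2 calls (3.59% of all genes), Hars at -0.63 and Qars at 0.49. Sars read 1947 and 1978 in FBB1.10, against 1682 and 1538 in FBB1.5, with no overlap, and 1843 and 1776 in parental cells, and its arrays read 1782 and 1728 in FBB1.7 and 1834 and 1622 in FBB1.11. The other 3 pairs gave 0 calls, with 0.112% of all genes for FBB1.10 over FBB1.7, 1.63% for FBB1.11 over FBB1.5 and 0.28% for FBB1.11 over FBB1.10. Those pairs held 4, 1 and 6 genes at an unadjusted p under 0.05.

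The call that held without each array in turn was Qars in FBB1.7 over FBB1.5 (limma, adjusted p up to 0.0091). Aars in FBB1.10 over FBB1.5 (adjusted p = 0.0041) was lost only without FBB1.10 array 1 (adjusted p = 0.063). Of the other calls in FBB1.7 over FBB1.5, Aars was lost without FBB1.5 array 1 or FBB1.7 array 1, Hars without those or FBB1.7 array 2, Mars1 without any array of FBB1.5, FBB1.7 or FBB1.11, and Tars without any subclone array. In FBB1.10 over FBB1.5, Gars and Mars1 were lost without any array of either line, Tars without 3 of those 4 (all but FBB1.10 array 2), and Sars without any subclone array. In FBB1.11 over FBB1.7, Qars was lost without any array of either line and Hars without any subclone array. With 1 array left out the counts ran from 1 to 7, 0 to 6 and 0 to 2 for the 3 pairs with calls. Over the 19 cytosolic genes the median log2 difference was 0.21 for FBB1.7 over FBB1.5, with 16 genes above 0, and 0.23 for FBB1.10 over FBB1.5, with 17 above 0. Over the mitochondrial genes these medians were -0.04 and 0.02. Medians and shares above 0 over all genes were not taken for these pairs, so these values stand without a background.

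The other 12 cytosolic genes differed from parental cells by -0.22 to 0.31 on the log2 scale, and none was called in a subclone by its brightest probe set. Farsb, the beta chain of the phenylalanine enzyme, came nearest, with 588 and 552 in FBB1.7 against 398 and 521 in parental cells (log2 0.31, limma, adjusted p = 0.1003). Another Farsb probe set passed in FBB1.7 (log2 0.39, adjusted p = 0.031). Vars, the valine enzyme, lay below parental cells in all 4 subclones, by -0.22 to -0.03, and was not called. Kars, the lysine enzyme, was 0.02 to 0.11 above parental cells and was not called. Of Wars, the tryptophan enzyme, 4 probe sets were tested and none was called.

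The 15 mitochondrial genes differed by -0.32 to 0.50, and the smallest adjusted p was that of Sars2 in FBB1.7. It read 36.95 and 42.04 in FBB1.10, 49.79 and 45.33 in FBB1.7, 36.65 and 35.39 in FBB1.5 and 43.51 and 37.08 in FBB1.11, against 25.79 and 32.47 in parental cells. All subclone arrays lay above the parental ones, 1 of which was below the table median, and the difference in FBB1.7 was not called (log2 0.50, limma, adjusted p = 0.0757). Ears2 lay farthest below, at -0.32 in FBB1.7 (adjusted p = 0.361), on arrays that read 45.98 and 29.83 against 55.38 and 45.76 in parental cells.

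Partner genes of the pathway gave no calls by limma. Of the multisynthetase complex scaffold genes (Aimp1, Aimp2 and Eef1e1), 0 of 3 were called in any subclone, with 0 or 1 in each at an unadjusted p under 0.05. The count was 0 of 14 for other aminoacylation genes, such as the editing and amidation enzymes. It was 0 of 11 for GCN2 and mTORC1 genes with the translation factor eIF2 and its other kinases. Of these, GCN2 senses uncharged tRNA and mTORC1 responds to free amino acids. At an unadjusted p under 0.05 the lists of 14 and 11 genes held 1 to 2 and 1 to 3 genes in each subclone. Of all genes 0.184% (FBB1.11) to 10.7% (FBB1.7) were called, so lists this short could hold no call at the background rate.

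Of 33 tested genes of ATF4 and the amino acid response, 9 were called in FBB1.10 (27.3%), 12 in FBB1.7 (36.4%), 7 in FBB1.5 (21.2%) and 0 in FBB1.11, where 6 had an unadjusted p under 0.05, against the shares of all genes given above. In FBB1.5, 6 were higher and 1 lower, against 1.38% and 0.992% of all genes. In FBB1.7, 9 were higher and 3 lower, and all 9 of FBB1.10 were higher. With 1 array left out the counts ran from 2 to 8 in FBB1.10, 4 to 12 in FBB1.7 and 0 to 7 in FBB1.5. The lowest counts came without FBB1.5 array 2, FBB1.7 array 1 and FBB1.10 array 1. The FBB1.5 count was also 3 without FBB1.5 array 1 and 4 without parental array 2, the FBB1.7 count 5 without FBB1.7 array 2 and 6 without parental array 1, and the FBB1.10 count 3 without FBB1.10 array 2. Without the intensity trend the counts were 0 in FBB1.10, 3 in FBB1.7 and 0 in FBB1.5, and without the filter 3, 6 and 2. Actin's ratio as a covariate gave 4 in FBB1.10 and 5 in FBB1.7, and the mean of a gene's probe sets gave 4 in FBB1.5.

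Asns, which makes asparagine, read 3729.97 and 3477 in FBB1.10, 3393 and 3337 in FBB1.7, 2853 and 3041 in FBB1.5 and 2884 and 2608 in FBB1.11, against 2453 and 2650.35 in parental cells. The 4 highest arrays were again those of FBB1.7 and FBB1.10. Asns rose by 0.40 in FBB1.7 and 0.50 in FBB1.10 (limma, adjusted p = 0.0018 and 0.0019). Psph, the last enzyme of serine synthesis, rose by 0.70 in FBB1.10, 0.82 in FBB1.7 and 0.58 in FBB1.5 (adjusted p = 0.0046, 0.00032 and 0.0122). Psat1, the enzyme before it, and Slc1a4, a carrier of neutral amino acids, also rose in those 3 subclones.

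Not every gene of that list ran with the cytosolic synthetases. Atf5, a factor related to ATF4, fell by 0.76 in FBB1.7 (limma, adjusted p = 0.000425), with 482 and 478 there against 881 and 771 in parental cells. Cebpg and Slc38a2 fell in FBB1.7 too, by 0.36 and 0.33. Ddit3, which encodes CHOP and is the gene next to Mars1, fell by 0.52 in FBB1.5 (adjusted p = 0.0196) and was not called in the other subclones. Atf4 itself rose by 0.44 in FBB1.5 and 0.43 in FBB1.10 (adjusted p = 0.033 and 0.040), and its difference in FBB1.7 was 0.27 (adjusted p = 0.096). FBB1.5, where Atf4 rose, had a cytosolic synthetase median of -0.06. These are RNA values, and the part of ATF4 in the synthetase differences was not tested.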

How the data were processed

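Total RNA of 10 samples was labelled and read on Affymetrix mouse expression arrays. The deposited table gives 1 linear intensity per probe set and array, all above 0. The authors' summarisation and scaling are not given in the sources used here. Sample titles gave the groups.

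The 45101 probe sets hold 64 controls, which were dropped. The scale is log2(intensity + 16), so folds of dim genes are understated. Array medians on that scale differed by 0.0623, and the deposited normalization was kept. Tests covered the 25061 probe sets above the table median of 30.52 on at least 2 of 10 arrays. Gene symbols come from the platform annotation, with 1 probe set a gene, the brightest on average, and all 35 members matched RefSeq. A synthetase gene without a symbol of this form was not analysed here.

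Tests used R 4.3.3, limma 3.58.1 (trend) and statmod 1.5.0, with Benjamini-Hochberg adjustment over all tested probe sets, and were tested on simulated data. Subclones were set against parental cells in a fit of 5 line means with 5 residual degrees of freedom, and together with the line as a random block (consensus correlation 0.211). Counts of all genes use 1 probe set a gene. Figures were drawn with Python 3.11.15 and matplotlib 3.10.9. Precision is limited by the number of arrays, 2 a line.

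Members and gene lists were chosen with earlier results of these data known. Each member called against parental cells or by the F test is given on every array, others by range and the examples with the smallest p; Vars, Kars and Ears2 were picked as examples after their values were seen. The single comparisons of subclones, the splits by complex and class and the leave-one-out counts of the ATF4 list were added after the data were seen. Array numbers 1 and 2 were checked for pairing: over 10 pairs of lines the correlation of their differences was -0.157 to 0.183, over 0.1 in 1 pair. No clear pairing by number was seen, though this check could miss a weak one. Alternatives changed the pseudocount, filter, trend, normalization, probe set rule, actin covariate, block and single arrays.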

Additional observations from a re-analysis of the deposited data

Results flagged for a closer look

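Between the 4 subclones the difference from parental cells was not the same for 6 synthetase genes, by limma's moderated F test with Benjamini-Hochberg adjustment. The adjusted p was 0.00193 for Qars, which was lowest in FBB1.7, and 0.0071 for Aars, which was lowest in FBB1.5. It was 0.0313 for Hars, highest in FBB1.7. It was 0.033 for Tars, 0.0377 for Mars1 and 0.0393 for Gars, each of which was highest in FBB1.10. All 6 are cytosolic, and each has 2 arrays per line.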

How the results depend on the processing

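Counts of called synthetase genes moved with the intensity trend and the filter. Without the trend the count was 2 in FBB1.7, and 0 in FBB1.10, between subclones and for the mean of 4 subclones. Without the filter it was 1 in FBB1.10, 2 between subclones and 0 for the mean of 4 subclones. Arrays centred on their median gave 3 between subclones, quantile normalization gave 1 in FBB1.5, and the actin ratio as a covariate gave 1 in FBB1.10 and a cytosolic median of 0.28 there. Tagged against parental, the fit of 5 line means gave 3 in place of 0. The causes were not tested. Among the other values, for single genes, pairs of subclones and the ATF4 list, 1038 were taken as unchanged. A further 168 lost a call, 14 gained one, 46, all of them counts, moved and 14 changed sign. The 1038 include differences not called in the main fit, which had no call to lose, and counts that stayed near the main one. They are thus no measure of the share of calls that held. With 1 array left out, counts ran from 0 to 1 in FBB1.5, 2 to 5 in FBB1.7, 0 to 3 in FBB1.10, 0 to 0 in FBB1.11, 1 to 7 between subclones, 0 to 3 for the mean of 4 subclones and 0 to 0 with the line as a block. Cytosolic medians then ran from 0.0917 to 0.28 in FBB1.10, 0.03 to 0.27 in FBB1.7, -0.12 to 0.02 in FBB1.5 and -0.04 to 0.08 in FBB1.11, and mitochondrial ones from 0.08 to 0.11, 0.06 to 0.11, 0.00018 to 0.11 and 0.05 to 0.12 in that order.

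Signs turned for differences that were not called. With 1 array left out, these were Aars in FBB1.11 (-0.0529 to 0.18) and the mean of 4 subclones (-0.0779 to 0.16), Hars in FBB1.5 (-0.36 to 0.36), FBB1.10 (-0.0763 to 0.65), FBB1.11 (-0.26 to 0.47) and the mean (-0.0818 to 0.65), Qars in FBB1.5 (-0.18 to 0.0908), Mars1 in FBB1.11 (-0.0117 to 0.0975) and Tars in FBB1.5 (-0.15 to 0.0372). The lowest Aars and Hars values came without parental array 1. Hars in FBB1.5 was also -0.0030 with a pseudocount of 64 and -0.0275 with arrays centred, and the mean for Aars was -0.013 with quantile normalization.

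With the array number as a replicate block, the counts were 4 in FBB1.7, 3 in FBB1.10, 6 between subclones and 3 for the mean of 4 subclones, as without it. The call of Tars in FBB1.7 over FBB1.5 was lost (adjusted p = 0.0503), and the samples share only a number.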

Other observations

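Other genes of tRNA supply and mitochondrial gene expression were counted in the same way. Of 46 tested genes of tRNA synthesis, processing and modification, 1 was called in FBB1.10 (2.17%, against 1.81% of all genes), 2 in FBB1.7 (4.35% against 10.7%), 2 in FBB1.5 (4.35% against 2.38%) and 0 in FBB1.11 (against 0.184%). These shares lie near or below those of all genes, and the calls are given as single genes. Nsun2, a tRNA cytosine methyltransferase, read 1210.07 and 1213 in FBB1.7 and 1227 and 1226 in FBB1.10, against 1006 and 946 in parental cells. It rose by 0.31 in FBB1.7 and 0.33 in FBB1.10 (limma, adjusted p = 0.0151 and 0.0367). Rpp30, a subunit of RNase P, rose by 0.44 in FBB1.7 (adjusted p = 0.0163). Pus7, a pseudouridine synthase, and Rpp14, another RNase P subunit, rose in FBB1.5 by 0.67 and 0.62 (adjusted p = 0.0015 and 0.0091).

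A list of 16 tested genes of mitochondrial gene expression mixed translation factors with genes of transcription. Of these 16, 1 was called in each of FBB1.5, FBB1.7 and FBB1.10, or 6.25%, and 0 in FBB1.11. The shares of all genes in those 3 subclones were 2.38%, 10.7% and 1.81%. A single gene in a list this short says little of the list. Gfm1, the mitochondrial elongation factor G, read 371 and 398 in FBB1.7, against 234 and 238 in parental cells, and rose by 0.67 (limma, adjusted p = 0.0013). Polrmt, the mitochondrial RNA polymerase, read 238 and 308 in FBB1.5 and 276 and 253 in FBB1.10, against 403 and 411 in parental cells. It fell by 0.56 in FBB1.5 and 0.59 in FBB1.10 (adjusted p = 0.0467 and 0.0398).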
